A study of Delphinium anthriscifolium with 89 samples.

Results

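Carpels are the female organs at the centre of a flower. Each folds and closes into an ovary that encloses ovules, with a style and stigma above it that receive pollen, and in larkspurs the separate carpels ripen into follicles. While a carpel is young its cells still divide and its tissues and ovules are being laid down, whereas older carpels mostly enlarge and mature.

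Among 32115 transcript features counted in *Delphinium anthriscifolium*, a larkspur, 42 were specific to carpels and highest at the early floral stages S9 or S10. The members were chosen by their measured levels in wild-type libraries. Counts were scaled to CPM, the count of a feature relative to its column total on one common scale, the replicate median of each group was taken and 1 was added to give a group value, and the highest stage stood for each organ. A member had its highest group in carpels at S9 or S10, a value of at least 6 there, and a carpel value at least 3 times that of every other organ. The highest group was carpels at S9 or S10 for 2575 features, of which 2017 reached the minimum value and 42 also reached the ratio. The limit of 200 features was therefore not met, and all 42 were kept. Because the members were selected on the carpel level, on the difference from other organs and on the early peak, these are given as a description with no test.

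RNA was sequenced from 89 libraries of this species to compare floral organs through development and to follow a silencing experiment. The wild-type groups used here were carpels and, for comparison, stamens, dorsal spurred petals, lateral non-spurred petals, dorsal spurred sepals, lateral non-spurred sepals and ventral non-spurred sepals, each with 2 libraries at stage S9 and 3 libraries at each of S10, S12 and S16, together with leaves (4 libraries) and bracts from beneath the S9 buds (4 libraries). That made 85 wild-type libraries, 11 of them from carpels and 74 from other organs. The silencing experiment gave 2 libraries titled ans-lmi1 and 2 titled ans, from virus-induced gene silencing, in which a virus carrying part of a gene lowers that gene's transcript in patches of the plant. All 4 carry ans in their titles. Their labels conflict: the series description places them in stage S12 petals, the sample fields give lateral non-spurred sepals, and the genotype field of 1 ans-lmi1 library reads LMI2 knockdown. The labels do not state whether replicates are different plants. The p-values therefore reflect only how much these libraries vary, and that variation may be technical.

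The feature IDs have the form of a de novo assembly, in which the part up to g names an assembly gene and i an isoform, and they are printed here without the number of the predicted reading frame. The files do not pair IDs with gene names, so no role is given to any member and the carpel label was not checked against marker genes. In wild-type libraries the totals ran between 4201867 and 22100119 estimated counts, and 3 counts in a library corresponded to between 0.136 and 0.714 CPM. In 21 wild-type libraries fewer than 19000 features had a count. Among carpels these were S10 replicate 1 (13139 features), S10 replicate 3 (18764) and S16 replicate 3 (15546), and all 6 sepal libraries and both stamen libraries at S9 were among the others. In carpels S10 replicate 1, 12 of the 42 members were at 0. Sums, timing and calls are given with and without these libraries. Carpels at S10 then had 1 library, so nothing is read from carpel calls against S10 or of S10 in that setting. The levels of single members are given by library, and what part low detection had in the results was not tested.

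The 42 members belonged to 41 assembly genes, and 31 were the only feature of their gene. The peak was at S9 for 26 and at S10 for 16. The level in the peak group ran between 5.36 and 958 CPM with a median of 28.4 CPM, so most members were of modest abundance and a few were very abundant. The ratio to the next organ ran between 3.04 and 45.2 with a median of 4.41. It was 10 or more for 3 members, between 5 and 10 for 8 and under 5 for 31. Most of the list thus lay close to the threshold that defined it.

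The member with the largest ratio, DN36571_c0_g1_i1, had 59.2 and 68.3 CPM in carpels at S9, 137, 59.6 and 39.0 CPM at S10, 38.6, 44.7 and 31.8 CPM at S12, and 7.61, 11.2 and 0 CPM at S16. Its next organ was stamens at S9, with 0 and 0.866 CPM. It was at 0 in every leaf and bract library, and its highest level outside carpels was 4.37 CPM, in 1 library of lateral petals at S16. Every carpel library but the S16 one at 0 was above every library of other organs, and the S16 libraries were below all earlier carpel libraries.

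DN40524_c0_g1_i1 had the next largest ratio, 25.3, and was the second most abundant member. Carpels held 337 and 471 CPM at S9, 188, 256 and 303 CPM at S10, 7.94, 1.96 and 6.73 CPM at S12, and 0, 0.677 and 0 CPM at S16. Its early carpel libraries were all far above its later ones, and no other member had a lower S16 level relative to its peak. Lateral petals at S9, the next group, held 17.3 and 12.7 CPM. The third member with a ratio of 10 or more, DN38631_c0_g1_i1 (13.9), is named after its values were seen. It had 0 and 82.3 CPM in carpels at S9 and at most 2.68 CPM in any other carpel library, so its place in the list rested on S9 replicate 2.

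The most abundant member, DN45772_c6_g1_i4, had 982 and 890 CPM in carpels at S9, 958, 778 and 1438 CPM at S10, 777, 513 and 790 CPM at S12, and 278, 270 and 118 CPM at S16. In stamens, its next organ, it had 170 and 160 CPM at S9, 147, 205 and 199 CPM at S10, 72.5, 104 and 111 CPM at S12, and 2.92, 0.715 and 0 CPM at S16. Carpels were above stamens at every stage with no overlap, and in both organs the S16 libraries were the lowest. It peaked at S10 by its median, but the S9 and S10 libraries overlapped.

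**Figure D1:**
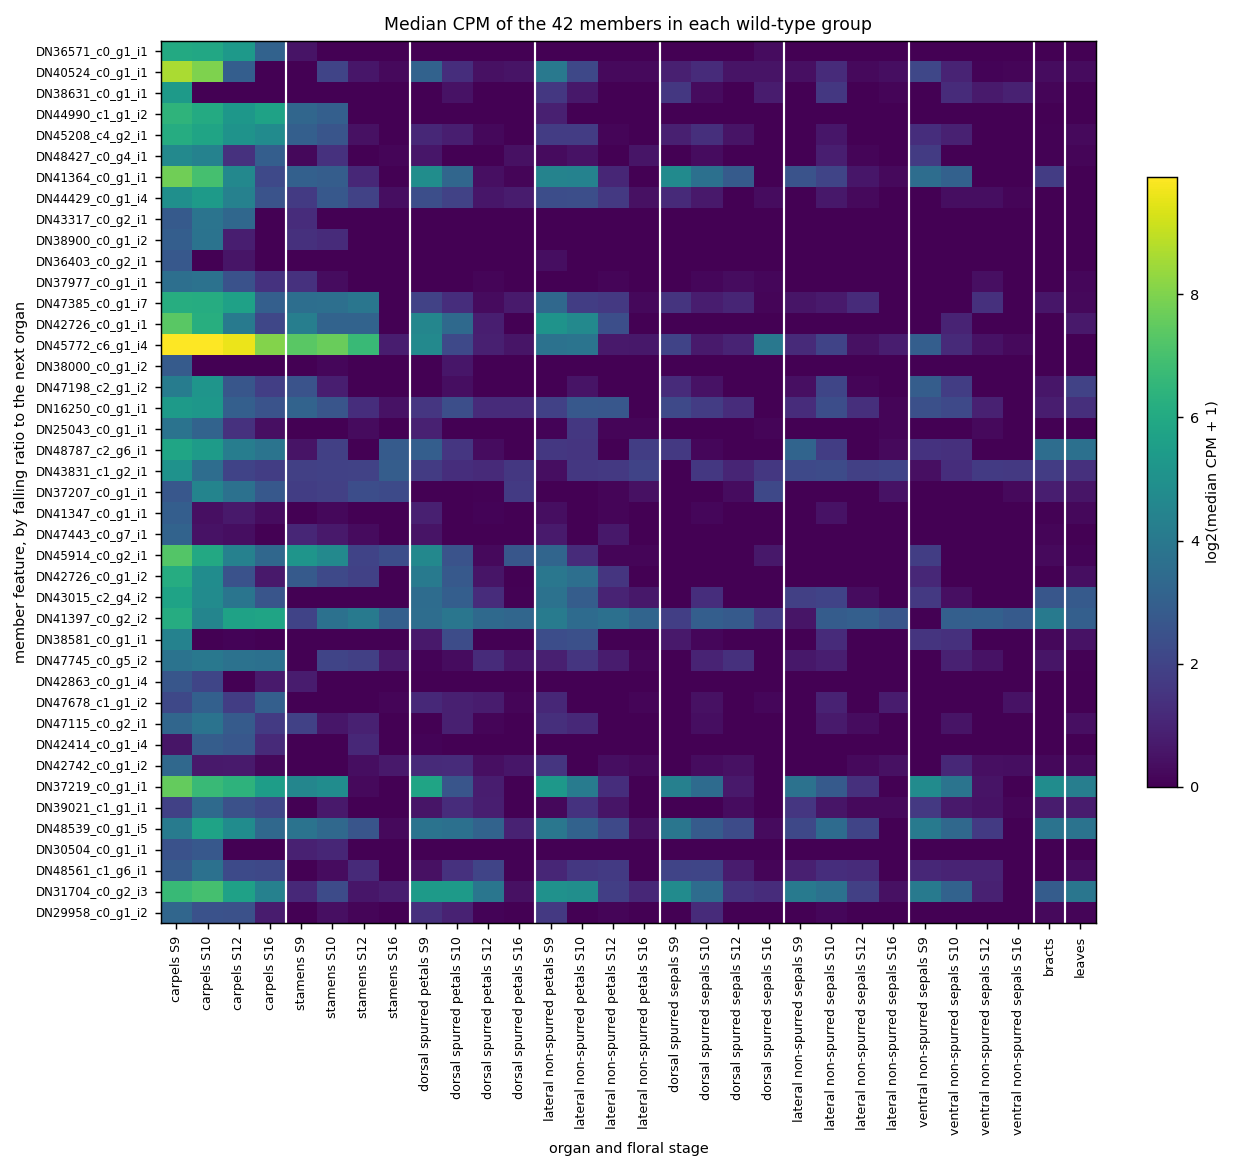
Median CPM of the 42 members (rows, by falling ratio to the next organ) in the 30 wild-type groups (columns, organs separated by white lines), as log2(median CPM + 1). The carpel columns at the left are brightest at S9 and S10, and DN45772_c6_g1_i4, at a peak of 958 CPM, is the brightest row in every carpel column and in stamens at S9, S10 and S12.

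At the threshold, the members just inside were DN31704_c0_g2_i3, with 127 CPM in carpels at S10 against 41.1 CPM in dorsal petals at S9, and DN29958_c0_g1_i2, with 8.59 CPM in carpels at S9 against 2.16 CPM in lateral petals at S9, both at a ratio of 3.04. The features just outside were DN58716_c0_g1_i1, with 7.87 CPM in carpels at S10 against 2.04 CPM in ventral sepals, and DN45772_c6_g1_i3, with 473 CPM in carpels at S10 against 162 CPM in stamens, both at 2.91. The last of these is an isoform of the gene of the most abundant member, and its ratio of 2.91 to stamens stood against 4.81 for the member.

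The next organ was stamens for 19 members, lateral petals for 10, dorsal petals for 7, ventral sepals for 4, dorsal sepals for 1 and leaves for 1. The next group was itself at S9 or S10 for 37 members, at S9 for 29 of them. By the same rule, 16 features were carpel-specific with a peak at S12 and 43 with a peak at S16. Stamens were the next organ for 45.2% of the early members, 43.8% of those peaking at S12 and 27.9% of those peaking at S16. The median ratio was 4.41 for the early members, 4.58 for those peaking at S12 and 6.23 for those peaking at S16. The largest ratio was 280 and the number with a ratio of 10 or more was 11 in the S16 list. These lists were all selected on the same ratio, so the figures describe them and were not tested.

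The replicates supported the members to different degrees. All libraries of the peak carpel group lay above all 74 libraries of other organs for 34 of the 42 members, a property shared by 15.7% of the 2575 features highest in early carpels. The rule used this contrast, so nothing is read from the difference. Of the other 8 members, 3 had a peak at S9 that rested on replicate 2: DN38631_c0_g1_i1, described above, DN38000_c0_g1_i2, with 0 and 12.5 CPM in carpels at S9, and DN38581_c0_g1_i1, with 0.712 and 38.8 CPM. These are named after their values were seen. For 22 of the 26 members peaking at S9 the levels of the S9 libraries were within 2-fold of each other, and 18 were higher in replicate 2. When each carpel library was left out in turn, 25 members met the rule every time and 17 failed it at least once.

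**Figure D2:**
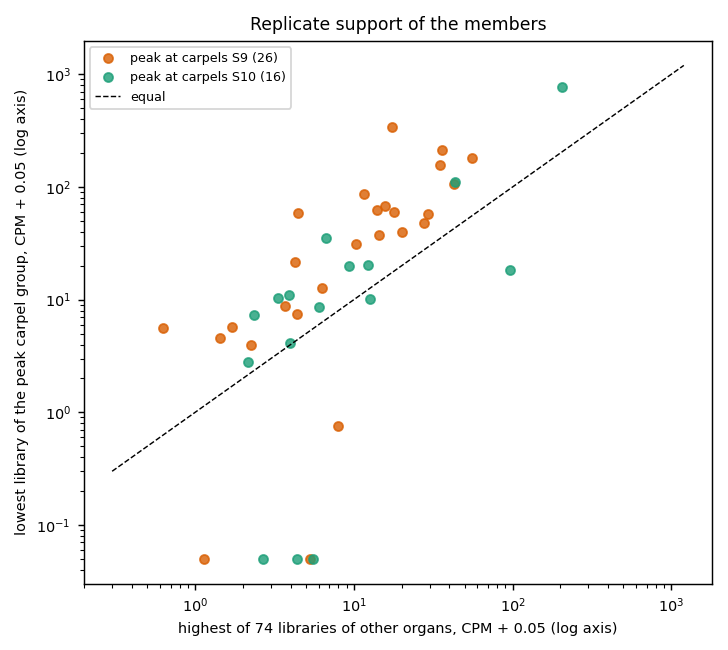
Each point is a member, with its highest level in 74 libraries of other organs on the horizontal axis and its lowest level in the libraries of its peak carpel group on the vertical axis, as CPM + 0.05 on log axes. The 34 points above the dashed line had every peak library above every library of other organs, and the 8 points below it did not.

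The summed level of the 42 members followed the stages of the carpel. It was 2994 and 3102 CPM at S9, 2386, 2210 and 2971 CPM at S10, 1350, 1092 and 1384 CPM at S12, and 597, 597 and 414 CPM at S16. The libraries of S12 lay below all early ones and those of S16 below all of S12. Without the 3 carpel libraries of few detected features, which leaves S10 with 1 library, the mean sum at S16 was 0.468 times that at S12, against 0.420 times with them. The 2 most abundant members made up between 43.9% and 58.6% of the sum in the 5 early carpel libraries. Without them the sum was between 1674 and 1741 CPM at S9, 1176 and 1240 CPM at S10, 566 and 588 CPM at S12, and 296 and 326 CPM at S16, which is the same order with tighter groups. In bulk tissue a lower level can mean fewer cells of a type or less of the transcript per cell, and these cannot be told apart.

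Outside carpels the sum was highest in stamens, with 310 and 348 CPM at S9, 337, 323 and 378 CPM at S10, 128, 192 and 192 CPM at S12, and 35.1, 54.9 and 18.7 CPM at S16. The highest of these, 378 CPM, was below the lowest carpel library, 414 CPM at S16. The mean carpel sum was 9.27 times that of stamens at S9, 7.29 times at S10, 7.48 times at S12 and 14.8 times at S16. When libraries of few detected features were left out it was 6.31 times at S10 and 13.3 times at S16, and no stamen library was left at S9. In stamens the 2 most abundant members held 170 and 160 CPM of the sum at S9 and 159, 205 and 202 CPM at S10. Without them the stamen sum was between 118 and 178 CPM at S10 and between 54.7 and 87.4 CPM at S12. That carpels lay above stamens at S9 and S10 follows from the choice of members.

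**Figure D3:**
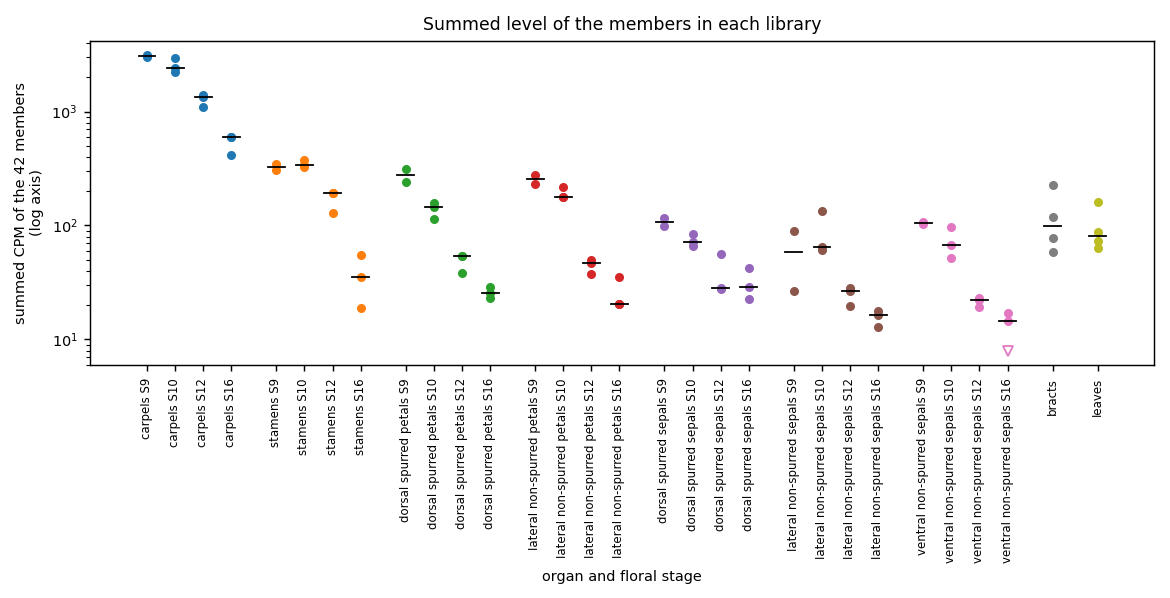
Summed CPM of the 42 members in each wild-type library (dots, log axis) by organ and stage, with bars at group medians. The open triangle marks a library of ventral sepals at S16 whose sum was 0. Carpel libraries lie between 414 and 3102 CPM, and every library of another organ lies at or below 378 CPM.

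The members differed in how long they lasted in carpels. With 1 added to each median, the S12 level was between 1.91% and 85.4% of the peak with a median of 29.6%, and the S16 level between 0.247% and 97.8% with a median of 15.02%. Members peaking at S9 stood at a median of 17.6% at S12 and 12.4% at S16. Members peaking at S10 stood at a median of 50.04% at S12 and 22.3% at S16. At S12, 12 members were still at 50% of their peak or more, of which 4 peaked at S9 and 8 at S10, and 5 were under 10%. At S16, 4 were at 50% or more and 11 were under 10%. Left without the libraries of few detected features, the carpel groups gave a median of 29.6% at S12 and 16.04% at S16, with 13 members at 50% or more at S12 and 6 at S16. The highest was then 144.6% at S12 and 108.1% at S16, so the early peak did not hold for every member. In that setting S10 had 1 library.

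The 5 members under 10% at S12 were DN40524_c0_g1_i1, DN38631_c0_g1_i1, DN38581_c0_g1_i1 and both isoforms of the assembly gene DN42726_c0_g1, the last 4 named after their values were seen. Isoform i1 of that gene had 155 and 175 CPM at S9, 65.5, 73.5 and 75.1 CPM at S10, 9.66, 15.4 and 25.6 CPM at S12, and 3.28, 3.33 and 4.48 CPM at S16. Each stage lay below the one before it with no overlap. These isoforms can share reads that the authors' counting divided between them, so the level of each is uncertain.

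The 4 members at 50% or more at S16 were DN47678_c1_g1_i2, DN47745_c0_g5_i2, DN41397_c0_g2_i2 and DN44990_c1_g1_i2, the last 2 named after their values were seen. DN47745_c0_g5_i2 had 11.7 and 13.5 CPM at S9, 81.9, 10.1 and 14.6 CPM at S10, 8.63, 12.3 and 15.6 CPM at S12, and 8.73, 11.5 and 30.7 CPM at S16. Its stages overlapped throughout, and its highest values at S10 and S16 were in replicates with few detected features. DN47678_c1_g1_i2 had 2.85 and 4.04 CPM at S9, 11.8, 7.24 and 4.04 CPM at S10, 13.5, 0.471 and 2.52 CPM at S12, and 5.13, 10.7 and 7.06 CPM at S16, so that S9 and S10 nearly touched and the later stages overlapped.

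DN44990_c1_g1_i2 had 85.8 and 88.2 CPM at S9, 29.9, 73.3 and 66.1 CPM at S10, 36.8, 28.7 and 42.6 CPM at S12, and 51.3, 39.9 and 66.7 CPM at S16. Its S9 libraries lay above all later ones, which overlapped each other. DN41397_c0_g2_i2 was lowest at S10, with 29.3, 21.6 and 14.8 CPM there, against 79.1 and 58.1 CPM at S9. At S12 it had 61.2, 51.9 and 21.3 CPM and at S16 54.7, 57.2 and 25.8 CPM, so 1 of its S12 libraries was within the S9 range and the other later libraries were below it. The median at S16 was above that at S12 for 5 members, equal to it for 3 and below it for 34.

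The change between S12 and S16 was not used by the rule. Of the 42 members, 40 passed the filter on low counts, and a member that passed through S12 libraries alone had to be lower at S16, so the counts are a description. With edgeR's quasi-likelihood test and a Benjamini-Hochberg adjusted p under 0.05, 1 member was lower at S16 than at S12 and 0 were higher, with 17 at an unadjusted p under 0.05. Over all 19829 features tested, 0.0605% were called lower and 0.0555% higher. The median log2 fold change was -1.13 for the members and -0.03 for all features, and 31 of the 40 members had a negative value. Of the 40, 5 were at 0 counts in all S16 libraries and 2 in all S12 libraries.

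The 1 call was DN41364_c0_g1_i1, which had 3.53, 4.51 and 3.39 CPM in carpels at S16, against 21.97, 28.8 and 23.4 CPM at S12. The means were 3.81 ± 0.61 CPM at S16 and 24.7 ± 3.58 CPM at S12 (SD, n = 3 each), with no overlap, and the log2 fold change was -2.56 (SE 0.32, edgeR adjusted p = 0.0175). Earlier, it had 63.6, 126 and 129 CPM at S10, against 212 and 219 CPM at S9. It was therefore lower at each successive stage, and its S16 level relative to its peak was the second lowest of all members. The call was lost when any 1 of the 3 S12 libraries or S16 replicate 1 or 2 was left out, with an edgeR adjusted p of up to 0.113, and it held without the libraries of few detected features (log2 fold change -2.55, edgeR adjusted p = 5.39e-04).

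The spread that the test took from the carpel libraries was smaller without those of few detected features. The coefficient of biological variation that edgeR fitted over all features was 0.652 with all 11 libraries, and 0.281 without S10 replicates 1 and 3 and S16 replicate 3. With a single library left out it was 0.468 for S10 replicate 1, 0.558 for S16 replicate 3 and 0.650 for S10 replicate 3. The cause was not tested. Without all 3 libraries edgeR called 15 of 42 members lower at S16 and 1 higher, or 35.7% lower, against 2.89% lower and 3.01% higher among 20869 features. Of the 15, 2 had 3 counts or fewer over the 2 S16 libraries left. DESeq2 with all libraries called 11 members lower and 1 higher, against 1.06% of all features lower and 1.32% higher. Of the 11, 2 had 3 counts or fewer over the 3 S16 libraries. Such members passed the filter through other stages and could only be called lower, so both counts are descriptions. In both fits the higher member was DN48427_c0_g4_i1, named after its values were seen.

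DN48427_c0_g4_i1 was lowest in the middle of the series. It had 27.0 and 21.4 CPM at S9, 22.2, 11.8 and 19.8 CPM at S10, 1.67, 1.65 and 0.561 CPM at S12, and 7.77, 6.02 and 6.79 CPM at S16. The S16 libraries all lay above those of S12 and below those of S10. In stamens it was at 0 in all 3 libraries at S12, which stood against 3.78, 0.932 and 1.70 CPM at S10.

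**Figure D4:**
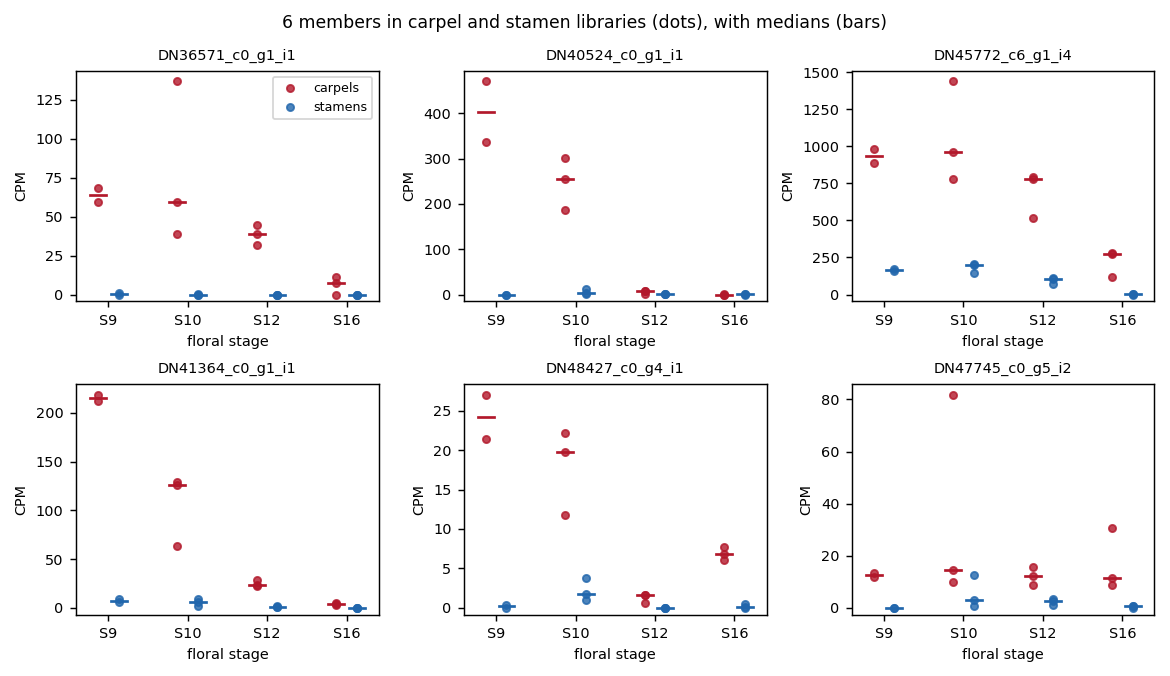
CPM of 6 members in carpel (red) and stamen (blue) libraries at S9, S10, S12 and S16, with dots for libraries and bars for medians, and a separate linear axis per member. DN40524_c0_g1_i1 and DN41364_c0_g1_i1 are low by S12 or S16, DN45772_c6_g1_i4 is at 513 CPM or more through S12, and DN47745_c0_g5_i2 shows 81.9 CPM in a single S10 library.

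Between S10 and S12 and between S9 and S10 in carpels the rule itself favoured the direction, so these calls are described only. S10 had 1 library in the fit without the libraries of few detected features, so nothing is read from that fit's calls in either comparison. At S12 against S10, edgeR called 5 of 40 members lower and 0 higher (0.146% of features lower and 0.126% higher), with a median log2 fold change of -1.23 for the members and 0.15 for all features. The members with the lowest values among those called without overlap were DN40524_c0_g1_i1, at a log2 fold change of -5.58, and DN48427_c0_g4_i1, at -3.84. When S10 replicate 3 or any 1 of the 3 S12 libraries was left out, 0 members were called, and the edgeR adjusted p reached 0.148 for DN40524_c0_g1_i1 and 0.207 for DN48427_c0_g4_i1. Without the libraries of few detected features 13 of 42 members were called lower, against 1.12% of all features, and DESeq2 called 15 of 40, against 2.74%. At S10 against S9 edgeR called 0 of 40 members (0.0% of features in either direction), with 9 members at an unadjusted p under 0.05, and DESeq2 called 1 member higher (0.403% of features higher). Without the libraries of few detected features 0 of 42 members were called, against 0.129% of all features in either direction.

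Timing in the other organs was not used by the rule, which set only a ceiling on their levels. In stamens 25 members passed the filter. At S12 against S10, edgeR called 0 lower and 0 higher, with 6 at an unadjusted p under 0.05. The share of all features called by edgeR was 1.29% lower and 0.426% higher. DESeq2 called 2 members lower, against 4.61% of all features. The median log2 fold change was -1.95 for the members and 0.06 for all features. Without the libraries of few detected features, 5 of 23 members were called lower (21.7%), against 6.81% of all features. Of these 5, 3 were at 0 counts in all S12 stamen libraries, so they passed the filter through other stages alone and their direction was fixed, and nothing is read from the share.

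In petals, as the mean over dorsal and lateral petals, 30 members passed the filter and 11 were lower at S12 than at S10 by edgeR, which is 36.7% against a background of 12.8%, while 0 were higher against 13.5%. The median log2 fold change was -1.99 for the members and 0.04 for all features, and 27 of the 30 had a negative value. A member that passed through S10 libraries alone had to be lower at S12, so the share is a description. DESeq2 called 15 members lower, against 16.1% of all features. Without the libraries of few detected features 17 of 33 members were called lower (51.5%), against 19.9% of all features.

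DN48787_c2_g6_i1 was named among these for its low fold change without overlap. Dorsal petals had 0, 0.471 and 0.267 CPM at S12, against 1.99, 2.44 and 1.63 CPM at S10. Lateral petals had 0, 0 and 0 CPM at S12, against 3.39, 1.64 and 1.88 CPM at S10. Over both types the means were 0.123 ± 0.201 CPM at S12 and 2.16 ± 0.668 CPM at S10 (SD, n = 6 each), a ratio of means of 0.0569 (edgeR adjusted p = 0.00208). The S12 petal libraries held 13 counts in all, none in lateral petals, so the size of the ratio is uncertain. With so few counts at S12 this member passed the filter through other stages alone. A call could only be lower, so its p-value is a description. Its carpel level was far higher, at 17.5, 28.0 and 17.0 CPM at S12 and 34.9, 46.6 and 42.3 CPM at S10.

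DN38581_c0_g1_i1 was the other. All its 3 petal counts at S12 came from 1 dorsal library, at 0.200 CPM, against 5.21, 3.99 and 1.70 CPM in dorsal petals and 4.42, 3.49 and 4.47 CPM in lateral petals at S10, which held 226 counts. The ratio of the pooled levels, S12 over S10, was 0.00942 with an exact 95% interval of 0.00193 to 0.0279 that covers counting error only (edgeR adjusted p = 0.00152). With 3 counts at S12 this member passed the filter through other stages alone. A call could only be lower, so the interval and the p-value are descriptions. The 6 S10 libraries were all above the 6 S12 libraries. This member was thus detected in every petal library at S10, while its carpel level rested on a single library.

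In sepals, as the mean over the 3 types, 26 members passed the filter and 7 were lower at S12 than at S10 by edgeR, 26.9% against a background of 5.6%, while 0 were higher against 5.64%. Of the 7, 2 had 3 counts or fewer over all 9 S12 libraries. They passed the filter through other stages and had to be lower. DN43015_c2_g4_i2, named after its values were seen, held 9 counts at S12 and DN38631_c0_g1_i1 held 23. These also passed the filter through other stages alone, which favoured a lower call, so the share is a description. The median log2 fold change was -1.92 for the members (-1.69 with members at 0 counts set to their bound against 3 counts over the group) and 0.00 for all features. For each of the 7 the S12 and S10 libraries overlapped. Of 24 members tested in both petals and sepals, 6 were called lower in both, against 4.57% of the 20966 features tested in both, among them DN41364_c0_g1_i1, DN31704_c0_g2_i3, DN48787_c2_g6_i1 and DN38581_c0_g1_i1. The last 2 of these are the members with 3 counts or fewer at S12 in sepals, whose direction was fixed. DN43015_c2_g4_i2 was also among the 6, and the filter favoured a lower call for it in sepals. The joint count is therefore also a description. In a fit that left out libraries of few detected features, 11 of 24 members were called lower (45.8%) and 1 higher, against 18.1% of all features lower and 20.1% higher.

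DN41364_c0_g1_i1 was lower at the later stage in petals and in sepals as well as in carpels. In petals it averaged 0.688 CPM at S12 and 13.5 CPM at S10 (n = 6 each), with a log2 fold change of -4.53 (edgeR adjusted p = 4.59e-06). In sepals it averaged 2.27 ± 2.91 CPM at S12 and 9.34 ± 6.67 CPM at S10 (SD, n = 9 each), with a log2 fold change of -3.22 (edgeR adjusted p = 0.00654). In stamens it had 1.15, 0.959 and 2.23 CPM at S12, against 8.70, 1.73 and 6.48 CPM at S10, with overlap, and was not called.

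DN31704_c0_g2_i3, the tested member with the highest mean level in petals at S10, averaged 8.03 CPM in petals at S12 and 31.1 CPM at S10, with a log2 fold change of -2.31 (edgeR adjusted p = 2.68e-04). In sepals it averaged 2.29 ± 1.33 CPM at S12 and 12.0 ± 8.78 CPM at S10 (SD, n = 9 each), with a log2 fold change of -2.14 (edgeR adjusted p = 0.0278). In carpels it had 39.8, 49.98 and 65.4 CPM at S12, against 112, 127 and 150 CPM at S10, a contrast that the rule used.

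The summed level of the members was also lower at S12 in each organ. The mean sum at S12 was 0.506 times that at S10 in carpels, 0.493 times in stamens, 0.354 times in dorsal petals, 0.234 times in lateral petals, 0.510 times in dorsal sepals, 0.285 times in lateral sepals and 0.297 times in ventral sepals. In none of the 7 organs did the S12 and S10 libraries overlap. With libraries of few detected features left out the ratio was 0.577 in carpels, 0.487 in stamens, 0.252 in lateral petals and 0.381 in dorsal sepals, and the others did not hold such libraries at these stages. In carpels this order followed from the choice of members. In the other organs it was not part of the rule, though the ceiling and the early peak were, and whether the ratios differ between organs was not tested.

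**Figure D5:**
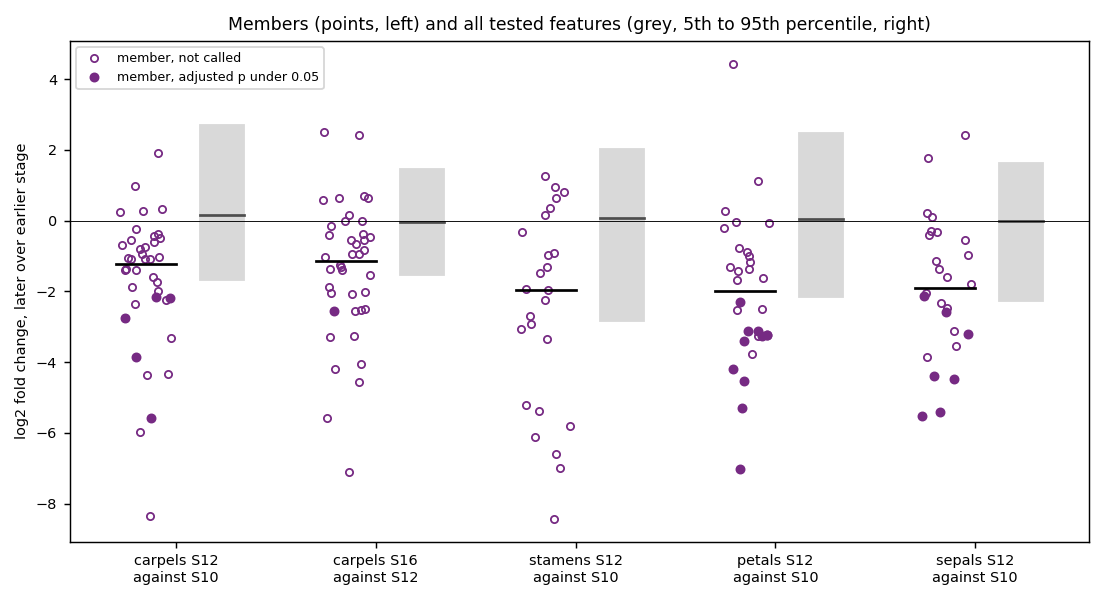
Log2 fold changes of the members that passed the filter, later over earlier stage, in 5 comparisons (points, filled where the edgeR adjusted p was under 0.05, with a bar at the median), beside the central range and median of all features tested (grey). The medians of the members lie between -1.13 and -1.99 and those of all features between -0.03 and 0.15.

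In the silencing libraries, which the rule did not use, the members were scarce. Their sum ran between 27.7 and 31.5 CPM over the 4 libraries, and between 17 and 25 members had a count. The filter passed 8 members. With edgeR 0 of the 8 differed between ans-lmi1 and ans, with 0 at an unadjusted p under 0.05, and DESeq2 also called 0. Over all 18757 features edgeR called 0.0%, with 1373 at an unadjusted p under 0.05, and DESeq2 called 122 (0.65%). The log2 fold changes of the 8 members lay on both sides of 0, with a median of 0.08 against 0.01 for all features. The member with the highest level there, DN41397_c0_g2_i2, averaged 12.5 CPM in ans-lmi1 and 18.2 CPM in ans (n = 2 each), a log2 fold change of -0.52 (SE 0.22) that did not pass the edgeR test (adjusted p = 0.676).

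For 9 members' assembly genes the files hold other features that are not members, 14 in all, of which 8 reached a median of 1 CPM in some group. Their levels show how far the pattern was one of the gene or of the isoform record, and they are named after their values were seen. For DN44429_c0_g1 the member, isoform i4, had a median of 19.3 CPM in carpels at S12 and 41.1 CPM at S10, while isoform i6 was highest in carpels at S12, at 68.5 CPM and a ratio of 4.82 to the next organ. For DN42414_c0_g1 the member, isoform i4, had 6.55 CPM in carpels at S10, and isoform i9 was highest in carpels at S12, at 25.1 CPM and a ratio of 3.93. The early peak of DN42414_c0_g1_i4 was not separate from S12: it had 5.45, 2.41 and 7.62 CPM at S12, against 10.8, 6.55 and 2.75 CPM at S10, and it failed the rule without S10 replicate 1.

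For DN45208_c4_g2 the isoforms differed by organ. The member, isoform i1, had a median of 68.6 CPM in carpels at S9 against 7.02 CPM in stamens, whereas isoform i2 reached 32.4 CPM in carpels and 36.6 CPM in lateral petals at S9. For DN45772_c6_g1 isoform i2 was highest in bracts, at 25.6 CPM, and at most 5.88 CPM in carpels, while isoforms i4 and i3 were highest in carpels. For DN48539_c0_g1 the member, isoform i5, had a median of 52.6 CPM in carpels at S10. Isoform i1 reached 67.1 CPM there at a ratio of only 1.15 to the next organ, and isoform i8 was highest in lateral sepals at S10, at 16.9 CPM. With counts summed over each assembly gene, 37 genes met the rule, and all 37 were genes of members. How reads were divided between the isoforms of a gene was not tested.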

How the data were processed

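Per the labels' protocols, the RNAprep Pure Plant Kit (TIANGEN) served for extraction of total RNA, and libraries were built by a Fast RNA-seq kit (Lib Prep Kit V2). TopHat2 and RSEM are named, without versions or roles, per the submitters' processing notes; which reference was used, and whether strand was kept, is not given in the sources used here. In each deposited file, 1 per library, the values are unnormalized estimated counts. CPM was computed from the column totals. For testing, the estimated counts were made whole by rounding, and edgeR 4.0.16 was run under R 4.3.3 (quasi-likelihood F tests, robust, TMM scaling, filterByExpr), with one mean per group within all carpel, stamen, petal, sepal or silencing libraries. P-values were adjusted by Benjamini-Hochberg over all features tested, and a feature was called at an adjusted p under 0.05. SEs of log2 fold changes were obtained by dividing the change by the root of its F. Scaling by column totals in place of TMM would move the median log2 fold change of all features by -0.14 for carpels S16 against S12 and by -0.18 for sepals S12 against S10, and by under 0.1 elsewhere. The fit was also run on simulated data with large changes and a capped spread, so that run does not show how the fit performs on these libraries.

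Groups were taken from sample titles. The members and lists were chosen with earlier results of these data known. Named features were the extremes in ratio, peak level and S16 persistence, those next to the ratio threshold, and per comparison up to 2 called members in each direction with the most extreme log2 fold change, no overlap and at least 1 CPM; others are marked in the text. The files give no gene names, so planned lists of named genes were not analysed here, and no sequence was used here. Groups share replicate numbers, but the deviations of same-numbered libraries from their group means did not all correlate above 0.1 in any comparison with 3 or more pairs, so the numbers were not taken as pairs. The alternatives tried were no low-count filter, DESeq2 1.42.0, the replicate block, only the compared groups, leaving out each replicate and other forms of the rule; leaving out libraries under 19000 features was chosen after the data were seen.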

Additional observations from a re-analysis of the deposited data

Results flagged for a closer look

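DN48787_c2_g6_i1 stood apart in 1 of the 4 bract libraries. Bracts replicate 2 had 27.7 CPM, against 10.2, 10.6 and 10.4 CPM in the other bract libraries, which is a gap of 0.977 of the group's range where 0.829 marks an outlier at the 95% level. Chance marks about 1 in 20 groups. Bracts replicate 2 was the highest of the 4 bract libraries for 12 of the 32 members with a count in bracts, and it held 95.9 CPM of DN48539_c0_g1_i5. The cause was not tested.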

How the results depend on the processing

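Of 150 alternative values of the counts of members called and of members meeting the rule, 122 stayed within 1.5 times the value reported. These 122 include counts that were 0 and stayed at 0, so they say little on the stability of the calls in carpels, which follow. At S16 against S12 in carpels, where 1 member was lower, DESeq2 gave 11 lower and 1 higher, no filter gave 3 lower, leaving out libraries under 19000 features gave 15 lower and 1 higher, and leaving out single replicates gave 0 to 1 lower. At S12 against S10 in carpels, where 5 were lower, DESeq2 gave 15, a fit of the compared groups alone 0, leaving out libraries under 19000 features 13, and leaving out single replicates 0 to 6. Leaving out libraries under 19000 features left carpels S10 with 1 library, so nothing is read from the 13. At S10 against S9 in carpels DESeq2 gave 1 higher. At S12 against S10, DESeq2 and a fit of the compared groups alone each gave 2 lower in stamens, where 0 were reported. Leaving out libraries under 19000 features gave 5 lower in stamens, 17 in petals (11 reported), and 11 lower and 1 higher in sepals (7 lower reported). In sepals a fit of the compared groups alone gave 1 higher, and leaving out single replicates gave 4 to 8 lower, the 4 without ventral sepals S10 replicate 3. The rule was met by 42 features, by 40 to 103 when a carpel library was left out (103 without S10 replicate 2 and 96 without S10 replicate 3), by 51 with replicate means, by 34 with TMM-scaled totals, and by 61, of which 35 were members, without libraries under 19000 features. With the replicate block, 1 member was lower at S16 against S12 in carpels, 10 were lower in petals and 8 in sepals; DN48427_c0_g4_i1 at S12 against S10 in carpels no longer passed (edgeR adjusted p = 0.0686, within 2.65e-10 to 0.207 over its alternatives), and no other named member's call changed under it. The cause of these shifts was not tested. At 3 counts per library, levels under 0.136 to 0.714 CPM were not measurable.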
